A study of Mus musculus with 8 samples.

Results

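Astrocyte marker genes were followed through RNA fractions of mouse striatum. The set was a list of 10 genes chosen by symbol, and every probe set that the platform annotation gave to one of them alone was read on all arrays. Of the 10 genes, 9 had such a probe set, 20 probe sets among 45101 in all and 9 genes among 17097 named. No probe set carried the symbol Glul, the gene of glutamine synthetase, in the annotation used here, so Glul was not analysed here. Slc1a3 had 1 probe set, below the level required for testing, and 8 genes were tested.

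The labels describe striatum of male mice aged 7 to 8 months, HD or WT, combined into 1 pool per genotype, and the design text names 4 mice without saying whether that is per genotype. The labels do not spell out HD. From each pool the crosslinked lysate gave RNA bound by antibody against CPEB4 (CPEB4 RIP), by antibody against CPEB1 (CPEB1 RIP) and by rabbit IgG (IgG RIP), which serves as background, and an aliquot kept before precipitation (input). RIP is RNA immunoprecipitation. CPEB1 and CPEB4 are cytoplasmic polyadenylation element binding proteins, which bind mRNAs and govern their poly(A) tails and translation. Each of the 4 fractions of each pool was hybridised once, so 8 arrays were available with no replicate within a group. All values are log2 summaries of probe sets, and 1 unit is a 2-fold difference.

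Astrocytes take up glutamate, potassium and water around synapses and vessels, pass glutamine back to neurons, and are joined by gap junctions. In injury and disease they become reactive, and the intermediate filament gene Gfap is the usual mark of that state. Striatal astrocytes of healthy mice are known for low Gfap. The list therefore holds Gfap on one side and genes of the homeostatic state on the other: the water channel Aqp4, the gap junction protein gene Gja1 (a connexin), the glutamate transporters Slc1a2 (GLT-1) and Slc1a3 (GLAST), the enzymes Aldh1l1 and Aldoc, the secreted synapse organiser Sparcl1 (hevin) and the receptor gene Gpr37l1. Aldoc and Sparcl1 are enriched in astrocytes but not confined to them.

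The tissue label was set against marker genes. On the HD and WT input arrays Ppp1r1b, the DARPP-32 gene of medium spiny neurons, stood at 10.30 and 11.07, Penk, the enkephalin precursor gene of striatopallidal neurons, at 8.30 and 9.64, and the myelin gene Mbp at 10.44 and 10.68. The dopamine receptor genes Drd1, at 4.47 and 4.53, and Drd2, at 5.05 and 4.56, lay close to 4.23, the median of all probe set means, which was the lowest mean a gene needed to be tested and is called the background level here. Ttr, a gene of choroid plexus, stood at 10.49 on the HD input array and 6.60 on the WT input array, and in HD it was also above WT in the CPEB4, CPEB1 and IgG fractions, by 2.11, 1.45 and 1.36. The part of neighbouring tissue in the results below was not tested. On the 8 arrays 648 to 1810 of the 11345 tested genes lay above 8, fewest on the HD IgG array and most on the WT CPEB4 array.

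In the input, Gfap and Gja1 were higher in the HD pool than in the WT pool, and Gpr37l1, Sparcl1 and Aldh1l1 were lower. These comparisons rest on 1 array of each genotype and carry no test. Of the 8 genes, 2 were at least 2-fold higher in HD and 3 at least 2-fold lower, against 11.3% and 4.43% of all genes tested. In bulk tissue fewer astrocytes and less RNA per astrocyte cannot be told apart.

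Gfap stood at 8.61 in HD input and 6.13 in WT input, a difference of 2.48 or 5.57-fold. Of all tested genes, 2.75% differed by that much or more in the same direction. Gfap thus lay among the genes with the larger positive differences between the 2 input arrays. The median difference of the other 7 members was -0.37 and that of all tested genes was -0.08, so Gfap exceeded the homeostatic members' median by 2.84. The remaining 2 Gfap probe sets lay between 2.89 and 4.44 on all arrays, and differed between the HD and WT inputs by 0.02 and -0.01. The Gfap difference therefore rests on 1 probe set of 3, the only one clearly above the background, and with the mean of the 3 probe sets it was 0.83.

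Among the other 7 tested members Gja1 alone shared the direction of Gfap past 2-fold, read from the probe sets of highest mean. It stood at 9.42 in HD input and 7.13 in WT input, a difference of 2.28 or 4.87-fold. The HD input array was the highest of all 8 for Gja1, and the other 7 spanned 6.50 to 7.80. Of its other 4 probe sets, 1437992_PM_x_at stood at 3.80 and 3.05 in HD and WT input, 1438945_PM_x_at at 3.28 and 2.89, and the differences of the remaining pair were 0.19 and 0.03. All 4 stayed at or below 4.35 on every array, so they give little measure of Gja1.

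Gpr37l1, the gene of an orphan receptor that astrocytes carry at high level, had the opposite and much larger difference. It stood at 4.77 in HD input and 10.05 in WT input, 38.9-fold lower in HD. Only 0.115% of tested genes differed by as much in either direction. The HD value is near the background, so the size of that fold depends on the background of the array. Gpr37l1 was represented by a single probe set.

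Sparcl1 stood at 7.51 in HD input and 9.48 in WT input, 3.94-fold lower in HD. Aldh1l1, the folate enzyme whose promoter is widely used to mark astrocytes, stood at 4.47 in HD input and 5.64 in WT input, 2.24-fold lower. The Aldh1l1 values lie close to the background. For Aldh1l1 the second probe set stayed between 2.72 and 3.31 on all arrays.

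In the probe sets of highest mean, Slc1a2, Aldoc and Aqp4 differed by less than 2-fold between the inputs in the deposited values. The Slc1a2 difference of -0.08 was, however, -1.15 after cyclic loess and 0.62 with its probe sets averaged. Slc1a2, the main glutamate transporter of forebrain astrocytes, stood at 11.23 in HD and 11.30 in WT. Its second probe set, 1459014_PM_at, differed from that and had 9.56 in HD against 8.24 in WT, a difference of 1.33. Aldoc, the aldolase C gene, stood at 8.21 in HD and 8.19 in WT. Aqp4 stood at 4.91 in HD and 5.28 in WT. The single Slc1a3 probe set had 3.95 in HD input and 3.54 in WT input, and 3.29 to 3.61 on the other 6 arrays, all below the background.

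**Figure D1:**
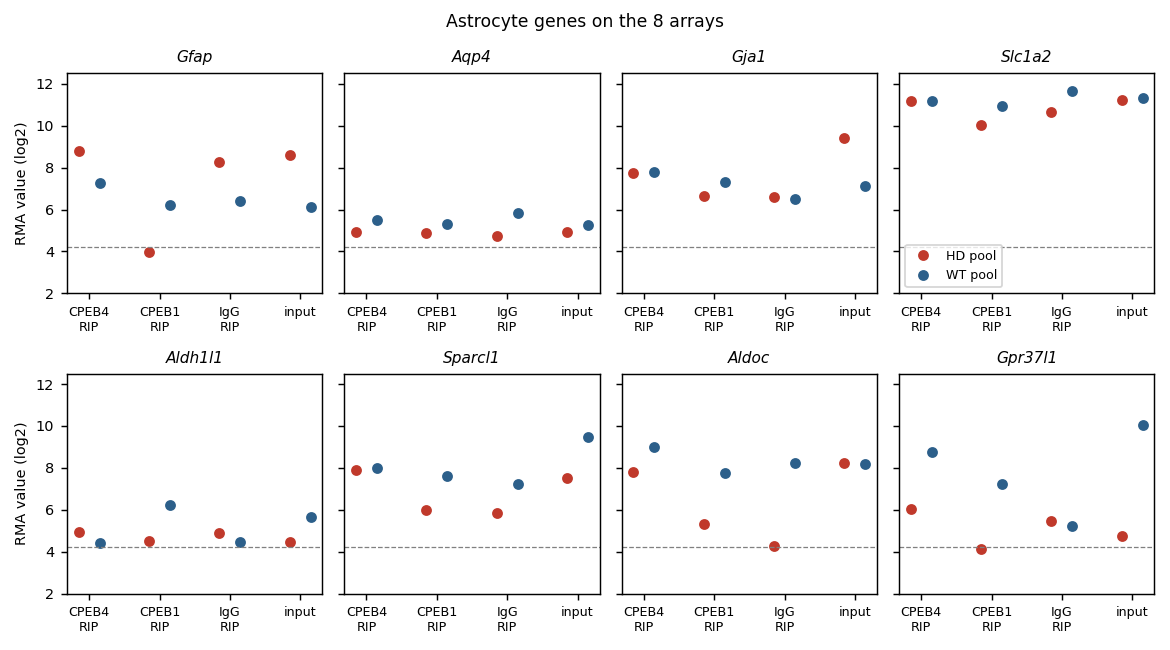
RMA values (log2, vertical axes) of the 8 tested astrocyte genes on the 8 arrays, by fraction (horizontal axes). Each point is 1 array, HD pool in red to the left and WT pool in blue to the right; the dashed line is 4.23, the median of all probe set means. Gfap lies at 8.61 in HD input against 6.13 in WT input, and Gpr37l1 at 4.77 against 10.05.

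The difference between HD and WT was next followed through the precipitates, which come from the same pools. For Gfap the HD array was the higher in 3 of the 4 fractions. In CPEB4 RIP Gfap stood at 8.81 in HD and 7.27 in WT, and in IgG RIP at 8.27 and 6.43, differences of 1.54 and 1.84. In CPEB1 RIP the order was the other way, with 4.0 in HD and 6.19 in WT, a difference of -2.20. The HD CPEB1 array was the lowest of the 8 for Gfap and was below the background.

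In CPEB1 RIP all 8 tested members were lower in HD than in WT, 5 of them at least 2-fold and 0 at least 2-fold higher, but Slc1a2 turned to 0.39 after cyclic loess and Gja1 to 0.007 after quantile normalization. Of all tested genes, 17.9% were at least 2-fold lower and 3.34% at least 2-fold higher in that fraction. The members' median was -1.64 and that of all tested genes 0.00. The 5 were Gpr37l1 (4.13 in HD and 7.25 in WT), Aldoc (5.32 and 7.75), Gfap, Aldh1l1 (4.54 and 6.23) and Sparcl1 (6.01 and 7.60). The second Slc1a2 probe set, 1459014_PM_at, was not in this count and stood at 4.51 in HD and 8.19 in WT, a difference of -3.67. Of the 24 other homeostatic astrocyte genes tested, 10 were at least 2-fold lower on the HD CPEB1 array and 1 higher, with a median of -0.64. Markers of medium spiny neurons were lower there too, 8 of 11 at least 2-fold, with a median of -1.37. The HD CPEB1 array held 866 genes above 8 and the WT CPEB1 array 1607. The part of these in the astrocyte values was not tested.

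CPEB4 RIP gave 1 member at least 2-fold higher in HD, Gfap, and 2 at least 2-fold lower, against 4.55% and 11.6% of all tested genes. Those lower were Gpr37l1, with 6.02 in HD and 8.76 in WT, and Aldoc, with 7.78 and 8.99. In the probe sets of highest mean, Gja1 (7.73 and 7.80), Slc1a2 (11.18 on both arrays) and Sparcl1 (7.91 and 8.01) were nearly equal in the HD and WT pools. The second Slc1a2 probe set, 1459014_PM_at, stood at 9.90 in HD and 11.00 in WT, a difference of -1.1. Medium spiny neuron markers were at least 2-fold lower on the HD CPEB4 array in 7 of 11 cases, with a median of -1.27, and the other homeostatic genes in 7 of 24, with a median of -0.44. Their part in the members' values was not tested.

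In IgG RIP 4 of the 8 members differed by at least 2-fold in either direction, against 15.4% of all tested genes, Gfap being higher in HD and Aldoc, Sparcl1 and Aqp4 lower. Aldoc had 4.27 in HD, at the background, and 8.25 in WT, a difference of -3.99 that 0.591% of tested genes matched in size. Sparcl1 had 5.87 in HD and 7.25 in WT, and Aqp4 4.75 and 5.85. Slc1a2 came just short of 2-fold in the deposited values, with 10.65 in HD and 11.64 in WT. The Slc1a2 difference of -0.99 turned to 0.31 after cyclic loess. Its second probe set, 1459014_PM_at, passed 2-fold with 8.06 in HD and 9.49 in WT, a difference of -1.43. Oligodendrocyte markers, 4 of 8 at least 2-fold lower with a median of -1.17, were lower on the HD IgG array as well. So were medium spiny neuron markers, 8 of 11 with a median of -1.79. Of the 24 other homeostatic astrocyte genes 5 were at least 2-fold lower there and 2 higher, with a median of -0.35. The median of all tested genes was 0.05, and their share at 2-fold was counted for either direction only. The part of these lists in the members' values was not tested.

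**Figure D2:**
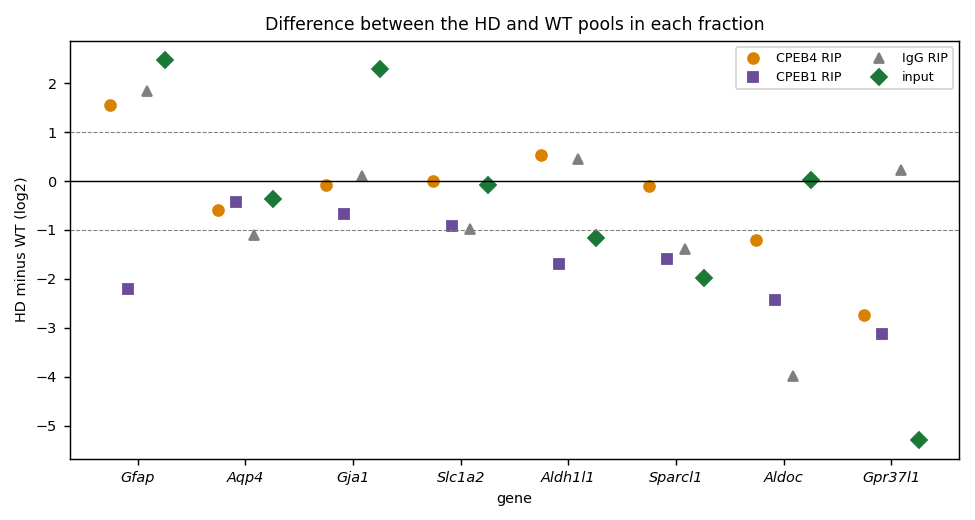
Difference between the HD and WT arrays (log2, vertical axis) of each tested gene (horizontal axis) in CPEB4 RIP (orange circles), CPEB1 RIP (purple squares), IgG RIP (grey triangles) and input (green diamonds). Each point is 1 pair of arrays, and dashed lines mark 2-fold. Gfap is above 0 in 3 fractions and at -2.20 in CPEB1 RIP; Gpr37l1 is at -5.28 in input.

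Whether reactive genes other than Gfap followed it was read from a list of 38 reactive astrocyte genes, of which 22 were tested. In input 1 was at least 2-fold higher in HD and 1 lower, against 11.3% and 4.43% of all tested genes. The list's median was -0.02. The one higher was Stat3, a transcription factor of the reactive state, with 7.48 in HD and 6.05 in WT. The one lower was Slc10a6, with 5.68 in HD and 7.55 in WT. Vim, named for its role as the filament partner of GFAP and not for its values, had 5.51 in HD and 5.65 in WT. Among the 24 other homeostatic genes 5 were at least 2-fold higher and 1 lower, against the same shares, with a median of 0.02. They included Mt3, a metallothionein gene (10.53 in HD and 6.36 in WT), Fjx1 (9.28 and 6.86) and the lipoprotein gene Apoe (8.58 and 6.59). Neither list had a median far from that of all tested genes, -0.08. The reactive list's mean was 5.54 in HD input and 5.63 in WT input, not far above the background of 4.23. Its median is therefore a weak measure of whether reactive genes followed Gfap.

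Markers of other cell types were counted between the same inputs, where 11.3% of all tested genes were at least 2-fold higher in HD and 4.43% lower. Medium spiny neuron markers had a median of -0.77 in HD minus WT input, with 4 of 11 at least 2-fold lower and 2 higher. Microglial markers had a median of 0.06 with 0 of 8 at 2-fold, endothelial and mural markers -0.04 with 0 of 9, oligodendrocyte markers 0.22 with 1 of 8 each way, and oligodendrocyte precursor markers 0.13 with 0 of 3. Ependymal and choroid plexus markers had a median of 0.06, with Ttr the only one of 5 at 2-fold. The part of these cell types in the astrocyte values was not tested.

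Association with CPEB4 was read against IgG. No astrocyte gene passed the test, limma with the pool as a block and an adjusted p under 0.05, by which 2.37% of all tested genes passed. At an unadjusted p under 0.05 there was 1 of 8, Sparcl1, against 22.9% of all tested genes, 15.7% higher and 7.20% lower. The members' median was 0.96 and that of all tested genes -0.06. In both pools 5 genes were higher with CPEB4 than with IgG, Gfap, Gja1, Sparcl1, Aldoc and Gpr37l1, and the other 3 had opposite signs in the pools. The share of all tested genes higher in both pools was not counted. Medium spiny neuron markers had a median of 0.67 in this comparison, and oligodendrocyte markers one of 0.63. The part of these cell types in the astrocyte values was not tested. The 2 pools stand in for replicates in this model, and all fractions share 1 estimate of the spread. A p-value or SE here therefore reflects the unevenness of the pools over all fractions, including those outside the comparison. Any difference between HD and WT that varies by fraction is counted in that spread.

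Sparcl1 had 7.91 and 8.01 in CPEB4 RIP of HD and WT, against 5.87 and 7.25 in IgG RIP. Both CPEB4 arrays were above both IgG arrays, by a log2 fold of 1.40 ± 0.49 (SE, n = 2 pools; adjusted p = 0.190 by limma). Aldoc had 7.78 and 8.99 in CPEB4 RIP, against 4.27 and 8.25 in IgG RIP. Here the arrays of the fractions overlap, and the fold of 2.13 ± 0.94 (adjusted p = 0.248 by limma) came mainly from the HD pool, with 3.51 in HD and 0.74 in WT. Gpr37l1 had 6.02 and 8.76 in CPEB4 RIP, against 5.47 and 5.24 in IgG RIP. Its arrays did not overlap, but the fold of 2.04 ± 1.23 (adjusted p = 0.342 by limma) came mainly from the WT pool, with 0.55 in HD and 3.52 in WT.

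Among these 5 genes, Gja1 had the most even folds in the pools. It had 7.73 and 7.80 in CPEB4 RIP, against 6.60 and 6.50 in IgG RIP, folds of 1.13 in HD and 1.31 in WT and 1.22 ± 0.73 in the model (adjusted p = 0.338 by limma). In a limma fit on the arrays of these 2 fractions alone the adjusted p of Gja1 was 0.140, and there 0 of all tested genes passed. Gfap had 8.81 and 7.27 in CPEB4 RIP against 8.27 and 6.43 in IgG RIP, a fold of 0.69 ± 1.15 (adjusted p = 0.703 by limma), which turned to -0.39 after quantile normalization. For Gfap the gap between HD and WT within each of these fractions was larger than the gap between the fractions.

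Slc1a2 had 11.18 on both CPEB4 arrays, against 10.65 and 11.64 in IgG RIP of HD and WT, a fold of 0.04 ± 0.37. Its second probe set, 1459014_PM_at, stood at 9.90 and 11.00 in CPEB4 RIP, against 8.06 and 9.49 in IgG RIP, a log2 fold of 1.67 ± 1.14 (adjusted p = 0.401 in the limma fit on every probe set), with 1.84 in HD and 1.51 in WT. The Slc1a2 probe sets thus gave different values for CPEB4, and neither passed the test. Aldh1l1 had 4.96 and 4.44 against 4.89 and 4.44, a fold of 0.03 ± 0.65. For Aldh1l1 and the first Slc1a2 probe set, the mean of the IgG arrays was close to that of the CPEB4 arrays in the deposited values. Over the alternatives, averaged probe sets included, the Slc1a2 fold ran from -1.68 to 0.86. Its sign changed in 4 of them, among them cyclic loess and quantile normalization.

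The probe sets of Aqp4 also differed in their values for CPEB4. The probe set with the highest mean, 1425382_PM_a_at, had 4.91 and 5.50 in CPEB4 RIP of HD and WT, against 4.75 and 5.85 in IgG RIP, a fold of -0.09 ± 0.29 (adjusted p = 0.850 by limma). A second one, 1447745_PM_at, had 6.11 and 5.90 in CPEB4 RIP, against 3.84 and 4.33 in IgG RIP, 3.69 and 3.58 in CPEB1 RIP and 3.83 and 3.53 in input. Both CPEB4 arrays thus stood above all 6 others, which lay near or below the background. In a limma fit on every probe set, without the filter on low values, this probe set rose with CPEB4 over IgG by 1.92 ± 0.25 (adjusted p = 0.0484), a fit in which 1.32% of probe sets passed. Over input it rose by 2.32 ± 0.25 (adjusted p = 0.0381), where 1.36% passed. It was lower with CPEB1 than with CPEB4 by a log2 fold of -2.36 ± 0.25 (adjusted p = 0.0462), where 0.584% passed.

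These 3 calls are close to the threshold and share the CPEB4 arrays. After quantile normalization the adjusted p values by limma were 0.0823 over IgG, 0.0577 over input and 0.0799 for CPEB1 over CPEB4. Leaving out any 1 of the 8 arrays leaves 1 group with a single array. The calls therefore cannot be judged in those fits, though the folds kept their direction. The third Aqp4 probe set, 1434449_PM_at, had 3.47 and 4.96 in CPEB4 RIP of HD and WT and 3.35 to 3.71 on the other 6 arrays, so that the WT CPEB4 array alone stood out. The stretches of Aqp4 RNA that the 3 probe sets detect were not compared here. Being chosen after its values were seen, the second probe set is described and supports nothing about the list.

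**Figure D3:**
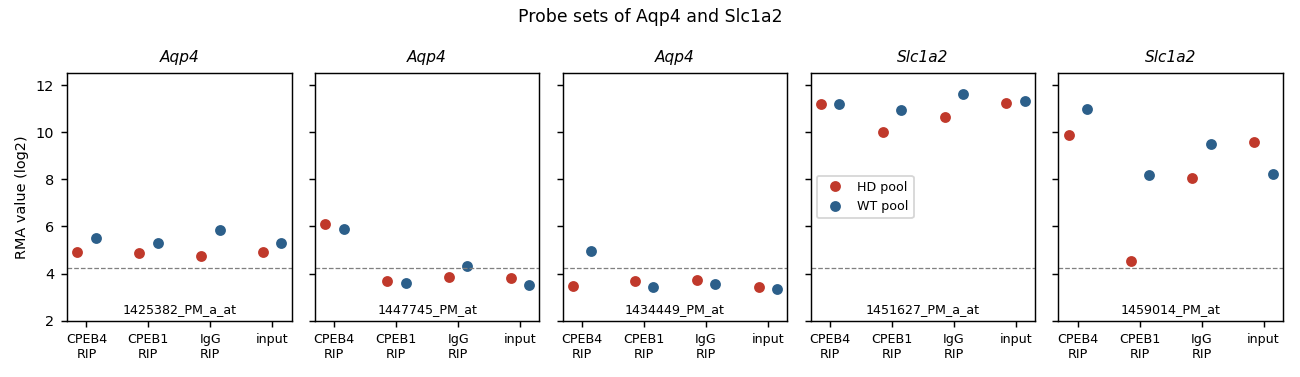
RMA values (log2, vertical axis) of the 3 Aqp4 and 2 Slc1a2 probe sets on the 8 arrays, by fraction (horizontal axes), HD pool in red to the left and WT pool in blue to the right; each point is 1 array and the dashed line is 4.23, the median of all probe set means. The Aqp4 probe set 1447745_PM_at is at 6.11 and 5.90 in CPEB4 RIP and at most 4.33 elsewhere, while 1425382_PM_a_at spans 4.75 to 5.85 over all fractions.

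Association with CPEB1 was read against the same IgG arrays. Here 0 of 8 members passed by limma, as did 0% of all tested genes, and 0 of 8 had an unadjusted p under 0.05, against 7.37% of all tested genes. The members' median was 0.26 and that of all tested genes 0.09. In both pools only Gja1 and Sparcl1 exceeded the IgG level, by 0.06 and 0.83 and by 0.15 and 0.35 in HD and WT.

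Among the probe sets of highest mean, that of Gfap lay furthest from the IgG level, and lower. Gfap had 4.0 and 6.19 in CPEB1 RIP of HD and WT, against 8.27 and 6.43 in IgG RIP, a fold of -2.25 ± 1.15 (adjusted p = 0.785 by limma). The value came from HD, with -4.27, and in WT it was -0.23. Slc1a2 was below IgG in both pools, with 10.01 and 10.93 in CPEB1 RIP against 10.65 and 11.64 in IgG RIP, a fold of -0.67 ± 0.37 (adjusted p = 0.800 by limma). Its second probe set, 1459014_PM_at, was at -2.43 ± 1.14 (adjusted p = 0.905 in the limma fit on every probe set), with -3.55 in HD and -1.30 in WT. That of Gpr37l1 was 0.33 ± 1.23, with -1.34 in HD and 2.0 in WT, and that of Aldh1l1 0.72 ± 0.65, with -0.36 in HD and 1.79 in WT.

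**Figure D4:**
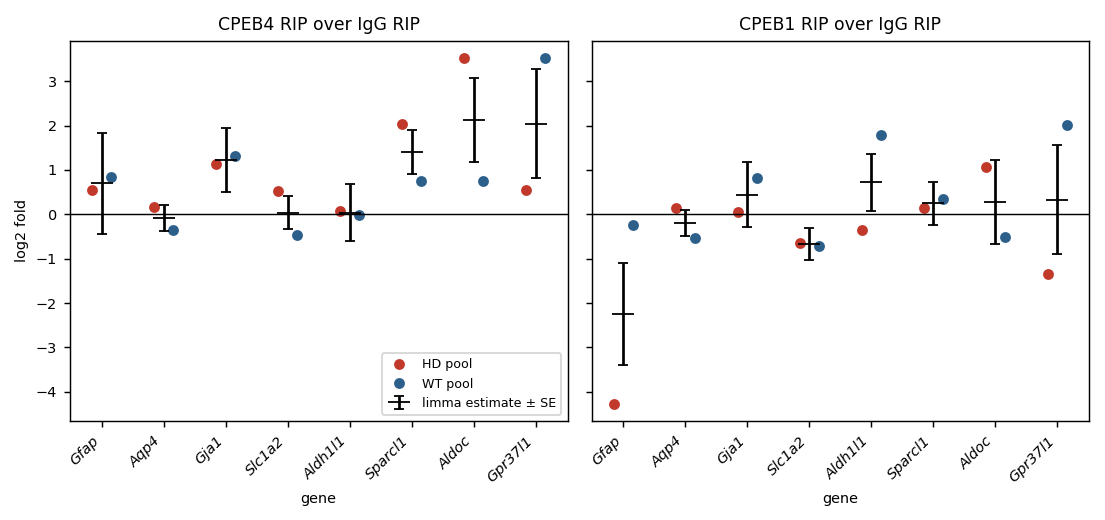
Log2 folds (vertical axis) of CPEB4 RIP over IgG RIP on the left and CPEB1 RIP over IgG RIP on the right, for each tested gene (horizontal axes). Points are the HD pool (red, left) and the WT pool (blue, right), and bars the limma estimate with its SE. With CPEB4 the folds of Gja1 are 1.13 and 1.31, while with CPEB1 Gfap is at -4.27 in HD and -0.23 in WT.

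The antibodies were compared directly, which leaves the IgG arrays out of the values. By limma 0 of 8 members passed between CPEB1 and CPEB4, and 0.141% of all tested genes did. In both pools 7 members were lower with CPEB1, the exception being Aldh1l1, and the members' median was -0.97 while that of all tested genes was 0.21. The share of all tested genes lower in both pools was not counted. At an unadjusted p under 0.05 there was 1, Gfap, which was lower, against 15.3% of all tested genes, 5.92% higher and 9.41% lower. In CPEB1 RIP of HD and WT Gfap stood at 4.0 and 6.19, against 8.81 and 7.27 in CPEB4 RIP, -2.95 ± 1.15 (adjusted p = 0.322 by limma), and the arrays did not overlap. Gpr37l1, at -1.71 ± 1.23, had like differences in the pools, -1.90 in HD and -1.52 in WT. Aldoc, at -1.85 ± 0.94, was lower in both pools but less evenly, with -2.46 in HD and -1.25 in WT. Sparcl1 was at -1.16 ± 0.49 (adjusted p = 0.337 by limma). The second Slc1a2 probe set, 1459014_PM_at, stood at 4.51 and 8.19 in CPEB1 RIP of HD and WT, against 9.90 and 11.00 in CPEB4 RIP, where the first had 10.01 and 10.93 against 11.18 on both. Its log2 fold was -4.10 ± 1.14 (adjusted p = 0.246 in the limma fit on every probe set), and the HD CPEB1 array was again the lowest of the 8.

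Against input the members divided by fraction. With CPEB4 0 of 8 passed by limma, where 1.36% of all tested genes did, and 0 of 8 had an unadjusted p under 0.05, against 26.2%. Only Gfap and Aqp4 were above input in both pools, Gfap by 0.21 in HD and 1.14 in WT and Aqp4 by 0.00 and 0.22. The members' median was -0.05 and that of all tested genes -0.15. Gpr37l1 had 6.02 and 8.76 in CPEB4 RIP of HD and WT against 4.77 and 10.05 in input, so it was above input in HD and below it in WT.

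With CPEB1 0 of 8 passed by limma against input, where 0.0176% of all tested genes did, and Sparcl1 alone had an unadjusted p under 0.05, against 8.07%. Sparcl1 had 6.01 and 7.60 in CPEB1 RIP of HD and WT against 7.51 and 9.48 in input, -1.69 ± 0.49 (adjusted p = 0.452 by limma). It was lower than input by similar amounts in both pools, -1.49 in HD and -1.88 in WT on the log2 scale. The IgG precipitate gave the same picture, with 5.87 and 7.25 in IgG RIP of HD and WT against 7.51 and 9.48 in input, -1.93 ± 0.49 (adjusted p = 0.386 by limma). Of the members 0 passed for IgG over input, where 0.0264% of all tested genes did, and Sparcl1 was the 1 with an unadjusted p under 0.05, against 9.75%. The members' medians were -1.48 for CPEB1 over input and -1.06 for IgG over input, and those of all tested genes -0.01 and -0.11. Gja1 was lower with IgG than in input in both pools too, at -1.73 ± 0.73, with -2.82 in HD and -0.64 in WT. The 3 comparisons with input share the input arrays, and those with IgG share the IgG arrays.

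Other genes of the astrocyte were counted in the same fits. For CPEB4 over IgG 0 of the 24 other homeostatic genes passed by limma, while 10 had an unadjusted p under 0.05, all higher, and the list's median was 0.76. Of all tested genes 15.7% were higher and 7.20% lower at that level, and their median was -0.06. The largest folds were those of Fjx1 (3.0 ± 1.01), the lipid phosphatase gene Plpp3 (2.40 ± 0.58) and Dio2, the deiodinase that activates thyroid hormone (2.19 ± 1.03), with adjusted p from 0.107 to 0.266 by limma. Of the 22 other reactive genes 0 passed, and 6 had an unadjusted p under 0.05, all lower, with a median of -0.38. The largest there were Fkbp5, a glucocorticoid-induced chaperone gene (2.10 ± 0.98), the ceruloplasmin gene Cp (-1.51 ± 0.42) and the sphingosine phosphate receptor gene S1pr3 (-0.84 ± 0.29).

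Between CPEB1 and CPEB4, 0 of the 24 homeostatic genes passed and 9 had an unadjusted p under 0.05, all lower with CPEB1, with a median of -0.89. Of all tested genes 9.41% were lower and 5.92% higher at that level, and their median was 0.21. Atp1b2, the glial sodium pump subunit, was at -3.01 ± 0.48 (adjusted p = 0.0943 by limma), with 6.04 and 8.11 in CPEB1 RIP of HD and WT against 9.68 and 10.50 in CPEB4 RIP. Reactive genes had 0 passing, 4 of 22 with an unadjusted p under 0.05, all higher with CPEB1, and a median of 0.45. The mean of the reactive list lay between 5.01 and 5.63 on the 8 arrays, not far above the background of 4.23, and was lowest on the 2 CPEB4 arrays. Clu, the clusterin gene, was below input in every precipitate, by log2 values of -2.43 ± 0.41 with CPEB4, -3.57 ± 0.41 with CPEB1 and -3.46 ± 0.41 with IgG, none past the test (adjusted p from 0.0616 to 0.146 by limma).

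Genes that handle glutamate and glutamine outside the list were 8 tested of 11. For CPEB4 over IgG 0 passed by limma and 2 had an unadjusted p under 0.05, Glud1, the glutamate dehydrogenase gene (3.08 ± 0.51, adjusted p = 0.0539), and Slc38a1, a glutamine transporter (2.10 ± 0.64, adjusted p = 0.154). Of all tested genes 15.7% were higher and 7.20% lower at that level. The neuronal glutamate transporter Slc1a1 was at 1.44 ± 0.67. In the same comparison the Slc1a2 probe sets were at 0.04 and 1.67.

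The genes whose values over the 8 arrays were most like those of Gfap were Lrp10, a receptor of the LDL receptor family, Gnai2, a G protein subunit, and Lysmd2, with Pearson's r of 0.975, 0.961 and 0.875 among 10606 genes. They were picked for likeness to Gfap on these same arrays, so sharing its high and low arrays follows from the choice. All 3 were higher in HD than in WT input, by 0.72, 0.69 and 0.47, and lowest on the HD CPEB1 array. Their range was narrower than that of Gfap, and Lysmd2 ran only from 4.17 to 4.72, close to the background. The 8 points come from 2 pools, so this is a description of these arrays.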

How the data were processed

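The deposited values are log2 expression summaries of probe sets made by RMA, per the submitters' processing notes. The sources used here give neither the RMA version nor whether the 8 arrays were normalized jointly. Per the labels' protocols, RNA was amplified through 27 cycles and 8 µg of cDNA was taken forward. Gene names came from the platform annotation (28898 probe sets with 1 symbol, 551 with several, 15652 with none), and 28689 matched the RefSeq table of GRCm38.p6. Each gene took the values of the probe set with the highest mean among those naming it alone, and tested if that mean was above 4.23.

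Contrasts between fractions used limma 3.58.1 (R 4.3.3), with the genotype pool as a block over all 8 arrays and Benjamini-Hochberg adjustment over 11345 genes at 0.05. The script was tested on simulated data. The 2 genotype pools, shared by all fractions, stand in for replicates, and the number of arrays limits the precision. HD and WT arrays were compared by difference alone. Text names the members, and from each further list genes past the test and up to 3 of largest size. The members and lists were chosen with earlier results of these data known. Alternatives covered filter, gene summary, normalization, block, variance, arrays fitted and each array left out.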

Additional observations from a re-analysis of the deposited data

Results flagged for a closer look

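In 22 combinations of a gene and a comparison the HD and WT pools had opposite signs. Of the 8 tested members these were 3 for CPEB4 over IgG, 4 for CPEB1 over IgG and 1 for CPEB1 over CPEB4. Against input they were 5 for CPEB4, 3 for CPEB1 and 6 for IgG. The share of all tested genes with opposite signs was not counted, so whether these counts are particular to the members cannot be said. Each pool gives 1 value, so these differences between the pools were not tested.

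For Gfap, CPEB1 over input was -4.61 in HD and 0.064 in WT, and IgG over input was -0.34 in HD and 0.30 in WT. Gja1 had -2.76 in HD and 0.19 in WT for CPEB1 over input, and -1.69 in HD and 0.67 in WT for CPEB4 over input. Gpr37l1 had -1.34 in HD and 2.0 in WT for CPEB1 over IgG, 1.26 in HD and -1.29 in WT for CPEB4 over input, and 0.70 in HD and -4.81 in WT for IgG over input. Sparcl1 had 0.41 in HD and -1.47 in WT for CPEB4 over input. These 4 genes are those with the larger HD minus WT differences in input, and the comparisons with input share those arrays.

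Aldoc had 1.06 in HD and -0.51 in WT for CPEB1 over IgG, -0.43 in HD and 0.80 in WT for CPEB4 over input, and -3.95 in HD and 0.063 in WT for IgG over input. Slc1a2 had 0.53 in HD and -0.46 in WT for CPEB4 over IgG, and -0.57 in HD and 0.33 in WT for IgG over input.

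Aldh1l1 had -0.43 in HD and 1.79 in WT for CPEB1 over CPEB4, -0.36 in HD and 1.79 in WT for CPEB1 over IgG, 0.071 in HD and -0.0045 in WT for CPEB4 over IgG, 0.49 in HD and -1.20 in WT for CPEB4 over input, and 0.42 in HD and -1.20 in WT for IgG over input. Aqp4 had 0.14 in HD and -0.54 in WT for CPEB1 over IgG, -0.029 in HD and 0.030 in WT for CPEB1 over input, 0.17 in HD and -0.35 in WT for CPEB4 over IgG, and -0.17 in HD and 0.57 in WT for IgG over input. The Aldh1l1 and Aqp4 values lie near the background level, and the smallest of these pairs differ by less than 0.1.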

How the results depend on the processing

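With each probe set tested separately and no filter, 1 member passed, against 0 in the fit on genes, for CPEB4 over IgG, for CPEB1 over CPEB4 and for CPEB4 over input. It was Aqp4. Over 11 alternatives added after seeing the data its folds spanned 1.56 to 2.27, -2.62 to -2.17 and 2.14 to 2.64 in that order. Over the other scalings among them its adjusted p by limma ran from 0.0424 to 0.0823, from 0.0405 to 0.0799 and from 0.0301 to 0.0577. In the other 105 recomputed counts of members passing, 0 passed as before. Members at 2-fold between HD and WT in CPEB4 RIP were 3, and 1 with probe sets averaged per gene, 6 with every probe set and 1 at 3-fold. In IgG RIP they were 4, and 2 at 3-fold, and in input 5, and 2 with probe sets averaged per gene. The cause was not tested. The members' median spanned 0.17 to 1.31 for CPEB4 over IgG, -1.43 to -0.61 for CPEB1 over CPEB4, -1.94 to -0.33 for CPEB1 over input and -1.83 to -0.13 for IgG over input. It took the other sign in 5 of 18 alternatives for CPEB1 over IgG (-0.19 to 0.53) and in 4 of 18 for CPEB4 over input (-0.44 to 0.24). Gfap exceeded the other members' median in HD minus WT input by 2.84, and by 0.83 with probe sets averaged per gene and 0.80 with every probe set. For CPEB4 over IgG 269 genes passed in all, and 135 with the stricter filter, 595 probe sets with every probe set, and 0 after quantile normalization, on the 2 fractions' arrays alone and without any 1 array of CPEB4, IgG or input. For CPEB1 over CPEB4 16 passed, and 61 after cyclic loess, 75 with robust variance, 81 without the block, 26 after median centring, 263 with every probe set, 1 with probe sets averaged per gene, and 0 with the stricter filter, after quantile normalization, on the 2 fractions' arrays alone and without any 1 array. For CPEB4 over input 154 passed, and 305 after cyclic loess, 239 without the block, 9 with the stricter filter, 612 with every probe set, and 0 after quantile normalization, on the 2 fractions' arrays alone and without any 1 array. For CPEB1 over input 2 passed, and 0 to 4 in the alternatives, and for IgG over input 3, and 0 to 9. The all-gene median of CPEB4 over IgG moved between -0.25 after quantile normalization and 0.10 after median centring. Fractions were paired by genotype pool, which is the block of the fit, and without it 0 members passed in any comparison. Values near 4.23 carry little signal over background, which limits Aqp4, Aldh1l1 and Slc1a3. No array of HD minus WT could be left out.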
